A study of Mus musculus with 24 samples.

Results

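The E2F transcription factors, the B-Myb gene *Mybl2* and the forkhead gene *Foxm1* were followed in irradiated astrocytes. The 10 members were the rows of the count tables whose Ensembl identifiers belong to *E2f1* to *E2f8*, *Mybl2* and *Foxm1*, out of 49315 genes listed, and all 10 were found and passed the filter on low counts in every comparison. The samples were primary astrocytes, glial cells grown in culture from the cortices of C57BL/6J wild type mouse embryos shortly before birth, with the embryos of a single mother pooled for each isolation. They were mock-irradiated (0 Gy) or exposed to 0.1 Gy or 2 Gy X-rays and harvested after 6 h or 24 h, which gave 6 groups of 4 libraries that carry the replicate numbers 1 to 4. Polyadenylated RNA was sequenced and counted per gene, and the total count per library was from 14742855 to 38194800.

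E2F proteins bind the promoters of genes needed for the start of DNA replication. *E2f1*, *E2f2* and *E2f3* encode activators, which the retinoblastoma protein holds inactive until cells commit to S phase. *E2f4*, *E2f5* and *E2f6* encode repressors, of which *E2f4* and *E2f5* products work with the pocket proteins p130 and p107 and that of *E2f6* with Polycomb proteins. *E2f7* and *E2f8* encode atypical repressors, which bind DNA without a DP partner, are themselves E2F targets and shut E2F target genes down late in S phase. B-Myb joins the MuvB complex in S phase and FoxM1 follows in G2 phase, and both activate genes of mitosis. Astrocytes divide in culture but seldom in the adult brain. Expression of *Mybl2*, *Foxm1*, *E2f7* and *E2f8* is tied to dividing cells, whereas *E2f4*, *E2f5* and *E2f6* are expressed in resting cells too.

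Whether 2 Gy changed these regulators was asked first at 24 h. *E2f8*, *E2f7*, *Foxm1* and *Mybl2* had lower levels in all 4 irradiated libraries than in any mock-irradiated library. Their fitted reductions were 2.69-fold, 2.39-fold, 1.93-fold and 1.85-fold. The activators *E2f1*, *E2f2* and *E2f3* had fitted log2 fold changes of -0.07, -0.15 and -0.33. When a blocked fit also took up GC content and length, the values of the activators were -0.32, -0.30 and -0.31. In the unpaired edgeR quasi-likelihood test 0 of the 10 members and 0% of the 15892 genes tested passed an adjusted p of 0.05. At an unadjusted p of 0.05 that test found 570 genes. At an adjusted p of 0.05, DESeq2 called 103 genes and a fit of all 24 libraries 108. Libraries of the same number deviated together, and a fit that blocks on this number called 4 members, all lower, against 13.2% of all genes in either direction and 6.69% lower. The 4 called in the blocked fit were *E2f8*, *E2f7*, *Foxm1* and *Mybl2*.

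*E2f8* (ENSMUSG00000046179, GRCm38 chr7:48866429-48881596, minus strand) was at 14.2, 18.3, 15.9 and 17.4 CPM (counts scaled to the library's total and by TMM, a factor for its composition) in mock-irradiated replicates 1 to 4 at 24 h and at 4.70, 4.82, 6.31 and 8.54 CPM after 2 Gy. The highest irradiated library thus lay well under the lowest control. The log2 fold change was -1.43 ± 0.231 (SE), with an adjusted p = 0.184 unpaired and 0.00249 with the block.

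*E2f7* (ENSMUSG00000020185, GRCm38 chr10:110745439-110787384, plus strand), the other atypical repressor gene, was at 5.39, 12.2, 7.17 and 8.10 CPM in the controls and at 2.86, 4.95, 2.59 and 3.23 CPM after 2 Gy. Its groups came close to each other, because replicate 2 was the highest of both, yet the difference within a replicate number was from -0.89 to -1.44 on the log2 scale. The log2 fold change was -1.26 ± 0.326 (SE), with an adjusted p = 0.542 unpaired and 0.00298 with the block. The study picked *E2f7* and *E2f8* out of these same libraries, so their direction here is not independent evidence.

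*Foxm1* (ENSMUSG00000001517, GRCm38 chr6:128362967-128376146, plus strand) was at 27.9, 33.5, 36.7 and 28.1 CPM in the controls and at 15.5, 17.6, 15.4 and 16.7 CPM after 2 Gy. The irradiated libraries were nearly level, with an SD of 1.07 CPM, and far below the controls. Its log2 fold change was -0.95 ± 0.159 (SE), with an adjusted p = 0.202 unpaired and 0.00329 with the block.

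*Mybl2* (ENSMUSG00000017861, GRCm38 chr2:163054687-163084688, plus strand) was at 6.10, 7.69, 12.2 and 5.85 CPM in the controls and at 3.27, 3.88, 5.66 and 4.34 CPM after 2 Gy. Control replicate 3 stood above the rest, and the highest irradiated library was just under the lowest control. The log2 fold change was -0.89 ± 0.295 (SE), with an adjusted p = 0.940 unpaired and 0.0148 with the block.

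These 4 calls did not rest equally on all libraries. *E2f7*, *E2f8* and *Foxm1* were called in the blocked fit without any 1 replicate number, with *Foxm1* and *E2f7* at an adjusted p = 0.0483 without number 2. The share of all genes called in these fits was 0.892% without number 1, 0.432% without number 2, 33.1% without number 3 and 1.54% without number 4. *Mybl2* was not called without number 1 (adjusted p = 0.0701) or number 2 (adjusted p = 0.118). Without number 3, 7 members were called, as *E2f5* and *E2f6* were then lower and *E2f4* higher, in the fit that called 33.1% of all genes. DESeq2 called *E2f8*, *Foxm1* and *E2f7*, against 0.711% of genes called lower by that tool, and the fit of all 24 libraries called the same 3 members, against 0.617% of genes lower.

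**Figure D1:**
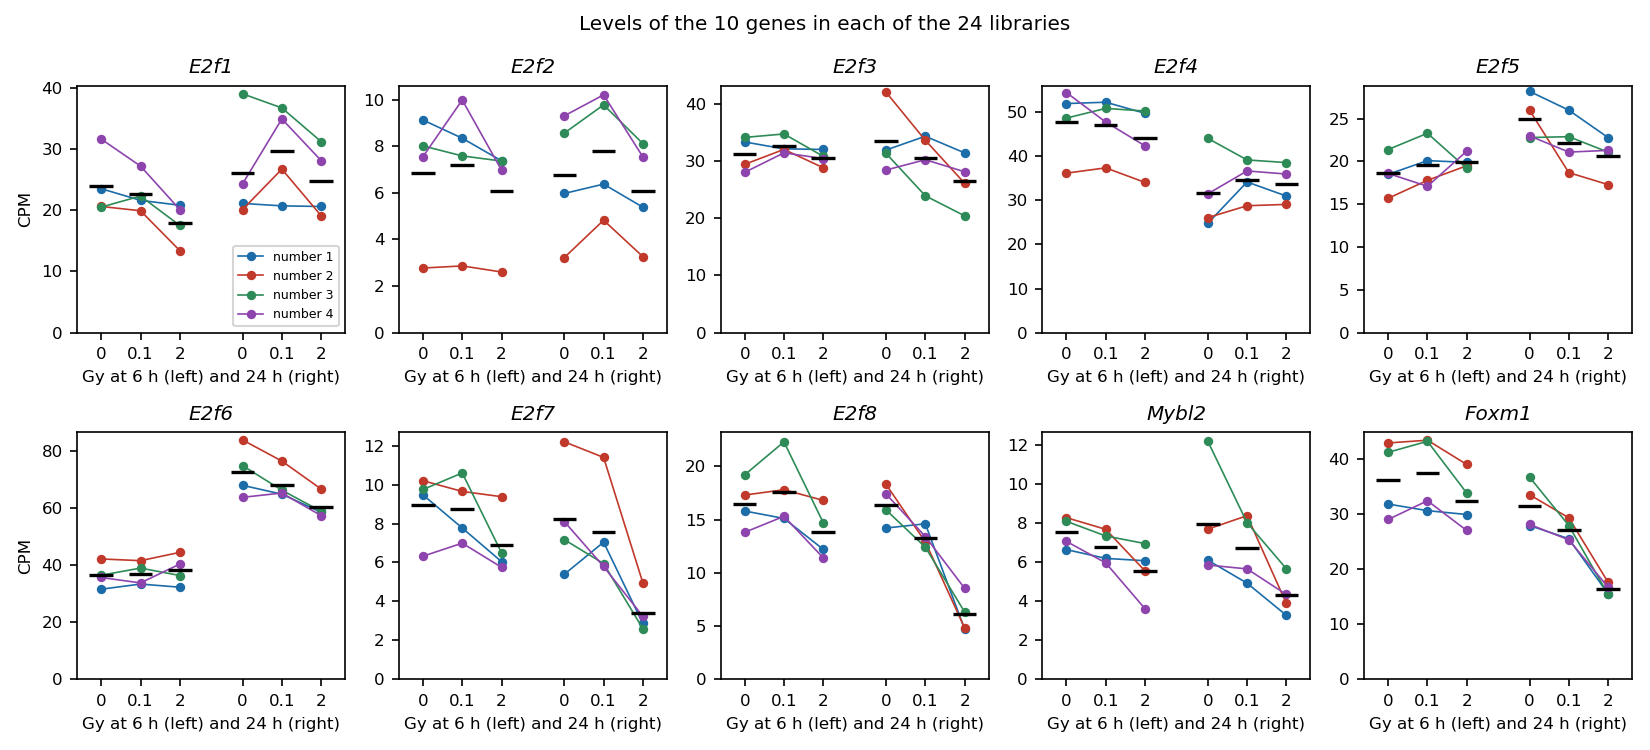
CPM (vertical axes, from 0) of the 10 genes in each library by X-ray dose in Gy, with 6 h on the left and 24 h on the right of each panel. Colours and lines join libraries of one replicate number within a time, and black bars are means of 4 libraries. At 24 h, all 4 lines of *E2f8* end between 4.70 and 8.54 CPM at 2 Gy, below every 0 Gy library.

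Among the activators, *E2f1* (ENSMUSG00000027490, GRCm38 chr2:154559407-154569892, minus strand) was at 21.1, 20.1, 39.0 and 24.3 CPM in the controls and at 20.6, 19.1, 31.2 and 28.1 CPM after 2 Gy at 24 h. The groups overlapped over most of their range, and replicate 3 was the highest in both. The fitted log2 fold change was -0.07 ± 0.252 (SE, adjusted p = 0.969). With GC content and length in the blocked fit, it was -0.32 (adjusted p = 0.128), and the transcripts of *E2f1* have the highest GC content of the 10 members, 58.3%. *E2f2* (ENSMUSG00000018983, GRCm38 chr4:136172394-136196057, plus strand) had a mean of 6.76 ± 2.76 CPM (SD, n = 4) in the controls and 6.07 ± 2.21 CPM (SD, n = 4) after 2 Gy, with a log2 fold change of -0.15 ± 0.381 (SE, adjusted p = 0.957), or -0.30 (adjusted p = 0.203) in the blocked fit with GC content and length. *E2f3* (ENSMUSG00000016477, GRCm38 chr13:29906575-29985668, minus strand) was lower in all 4 pairs, at 31.9, 42.0, 31.3 and 28.4 CPM against 31.4, 26.1, 20.4 and 28.1 CPM, but replicates 1 and 4 differed by only -0.02 on the log2 scale. Its log2 fold change was -0.33 ± 0.198 (SE), with an adjusted p = 0.940 unpaired and 0.127 with the block.

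The repressors *E2f4*, *E2f5* and *E2f6* were not called either. *E2f5* (ENSMUSG00000027552, GRCm38 chr3:14578641-14606309, plus strand) was at 28.2, 26.0, 22.8 and 23.0 CPM in the controls and at 22.8, 17.3, 21.1 and 21.3 CPM after 2 Gy. These groups met but did not overlap, and the log2 fold change was -0.28 ± 0.162 (SE), with an adjusted p = 0.940 unpaired and 0.122 with the block. The 26 bases that *E2f5* shares with the opposite-strand gene *1810022K09Rik* leave its count slightly uncertain, as the use of strand in counting is not given in the sources used here. *E2f6* (ENSMUSG00000057469, GRCm38 chr12:16810965-16826743, plus strand) had a log2 fold change of -0.26 ± 0.147 (SE, adjusted p = 0.940 unpaired and 0.0760 with the block), and *E2f4* (ENSMUSG00000014859, GRCm38 chr8:105297663-105305370, plus strand) one of 0.10 ± 0.204 (SE, adjusted p = 0.950), which was -0.12 (adjusted p = 0.524) in the blocked fit with GC content and length.

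An exact permutation test, taken as two-sided, was also run for each member on 4 against 4 libraries, whose smallest possible p is 0.02857. *E2f5*, *E2f7*, *E2f8*, *Mybl2* and *Foxm1*, whose groups did not overlap, each reached this exact p = 0.02857. Non-overlapping groups with lower levels after 2 Gy were found in 5 of 10 members and in 2.01% of all genes. Scaled by library size alone, 3 members had such groups, and the share of all genes at that scaling is not given here. Lower levels in all 4 pairs of one replicate number were found in 7 of 10 members and in 21.9% of all genes.

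The median log2 fold change at 24 h after 2 Gy was -0.15 over the 3 activators, -0.28 over the 5 repressors and 0.01 over all genes tested. In the blocked fit with GC content and length it was -0.31 over the activators and -0.30 over the repressors, so that the gap between the classes was not seen there. Within the repressors, the 3 canonical genes ranged from -0.28 to 0.10, or from -0.30 to -0.12 with GC content and length, and *E2f7* and *E2f8* were below -1 in both fits. A difference between the classes was not tested over so few genes chosen with results known.

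Levels were set per length (RPKM, CPM divided by the gene length in kilobases of the count tables) to compare the members with each other. In mock-irradiated cells at 6 h, *E2f4* was at 19.5 ± 3.32 RPKM (SD, n = 4) and *E2f6* at 15.0 ± 1.80 RPKM, with overlapping ranges. *E2f5* followed at 10.4 ± 1.31 RPKM and *E2f1* at 7.63 ± 1.65 RPKM. The ranges of *E2f5* and *E2f1* overlapped, as did those of *E2f1*, *E2f3* and *Foxm1* in turn. *E2f8* stood apart from its neighbours at 3.03 ± 0.415 RPKM. The lowest were *Mybl2* at 1.62 ± 0.171 RPKM, *E2f2* at 1.41 ± 0.575 RPKM and *E2f7* at 0.991 ± 0.196 RPKM, whose ranges overlapped in that order.

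The activators made up 21.4% ± 1.92 (SD, n = 4) of the summed E2f level per length in mock-irradiated cells at 24 h and 22% ± 1.91 (SD, n = 4) after 2 Gy. *E2f4*, *E2f5* and *E2f6* made up 73.5% ± 1.63 and 75.8% ± 2.09. The share of *E2f7* with *E2f8* was 5.09% ± 0.808 in the controls, with libraries from 4.31% to 5.86%, and 2.25% ± 0.419 after 2 Gy, with libraries from 1.82% to 2.81%. The summed level of the atypical pair did not overlap between these groups, at 3.21 to 4.71 RPKM in the controls and 1.18 to 1.93 RPKM after 2 Gy. That of *E2f4* to *E2f6* did not overlap either, at 52.1 to 61.7 RPKM and 49.1 to 51.9 RPKM, a smaller difference. The summed level of the activators overlapped, from 14.6 to 20.7 RPKM in the controls and from 12.2 to 16.3 RPKM after 2 Gy.

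**Figure D2:**
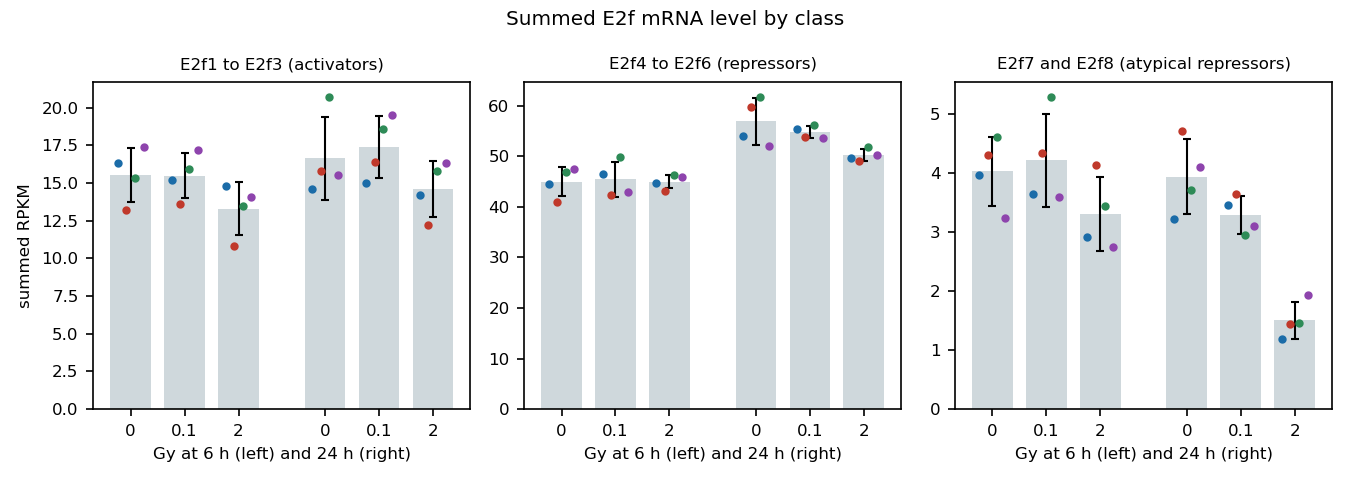
Summed RPKM (vertical axes, from 0) of *E2f1* to *E2f3*, of *E2f4* to *E2f6* and of *E2f7* with *E2f8* by X-ray dose in Gy, with 6 h on the left and 24 h on the right. Bars are means of 4 libraries, whiskers are SD and points are single libraries, coloured by replicate number. The atypical pair is at 1.5 ± 0.312 RPKM after 2 Gy at 24 h against 3.93 ± 0.634 RPKM in its control.

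At 6 h after 2 Gy, no member was called in the unpaired or the blocked fit, against 0% of the 15994 genes tested in either. At an unadjusted p of 0.05, 215 genes were found in the unpaired fit and 1101 in the blocked fit. DESeq2 called 1 gene at an adjusted p of 0.05. *E2f1* was at 23.5, 20.6, 20.5 and 31.6 CPM in the controls and at 20.8, 13.4, 17.5 and 20.1 CPM after 2 Gy. It was lower in each pair while the groups overlapped, with a log2 fold change of -0.42 ± 0.194 (SE, adjusted p = 1 unpaired and 0.502 with the block). *Mybl2* was at 6.64, 8.28, 8.09 and 7.06 CPM and at 6.07, 5.55, 6.95 and 3.61 CPM, also lower in each pair, with a log2 fold change of -0.43 ± 0.214 (SE, adjusted p = 1 unpaired and 0.669 with the block). *E2f7* had a log2 fold change of -0.37 ± 0.219 (SE), *E2f8* one of -0.26 ± 0.162 (SE) and *Foxm1* one of -0.16 ± 0.164 (SE). In all, 6 of 10 members were lower in each of the 4 pairs, as were 8.55% of all genes.

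The interaction of dose and time tested whether the response to 2 Gy differed between 24 h and 6 h. In the unpaired fit 0 members and 0% of 16866 genes were called, with 827 genes at an unadjusted p of 0.05, and DESeq2 called 4 genes. With the block, 3 members were called, all with a lower response at 24 h, against 6.78% of all genes in either direction and 3.23% lower. For *E2f8* the difference of the log2 fold changes was -1.17 ± 0.187 (SE, adjusted p = 0.0226), for *E2f7* -0.88 ± 0.195 (SE, adjusted p = 0.0384) and for *Foxm1* -0.78 ± 0.137 (SE, adjusted p = 0.0335). These calls were lost without number 1, where all 3 had an adjusted p = 0.120, and without number 2, where all 3 had an adjusted p = 0.286. Without number 4, *E2f7* was not called (adjusted p = 0.100). *Mybl2* was not called (-0.41 ± 0.224, SE, adjusted p = 0.236), and neither was *E2f1* (0.37 ± 0.163, SE, adjusted p = 0.142). The value of *E2f1* was -0.01 (adjusted p = 0.974) in the blocked fit with GC content and length, and it was called at 0.54 (adjusted p = 0.0312) without number 3, where 23.4% of all genes were called, against 0.814% without number 4.

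**Figure D3:**
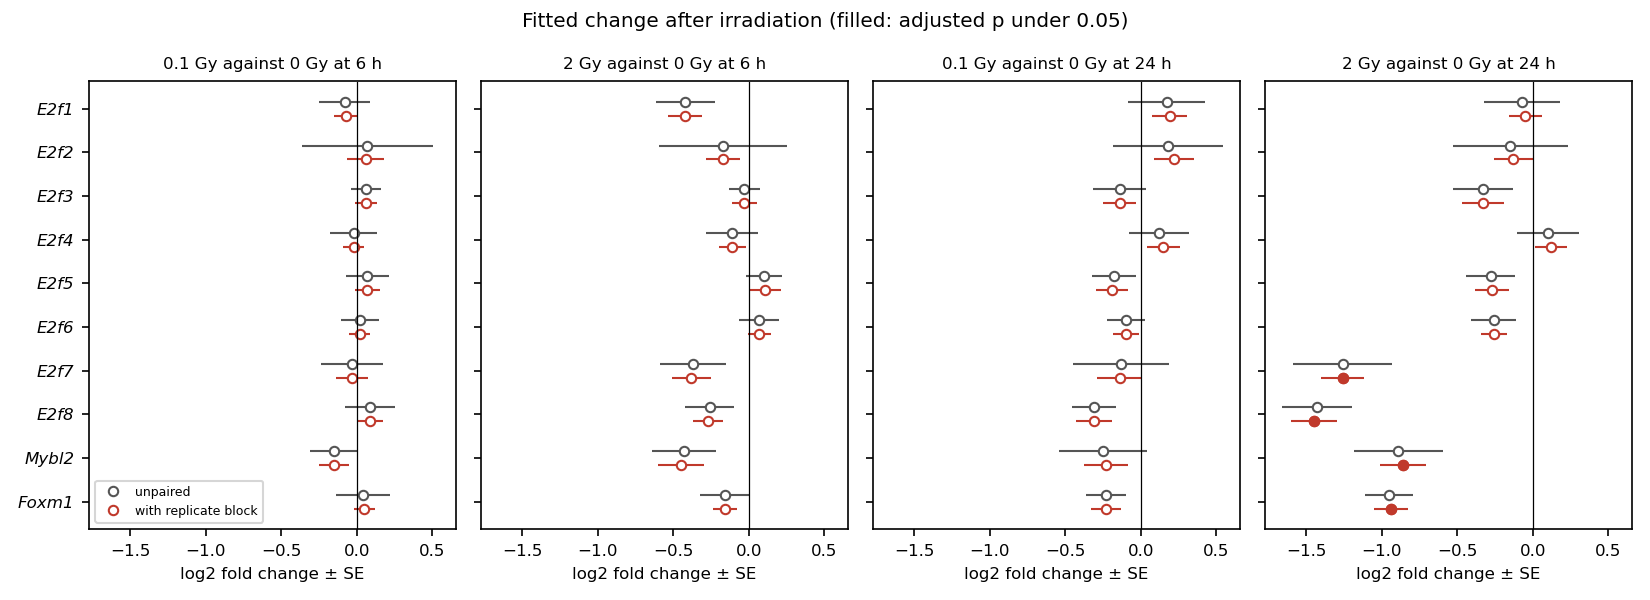
Fitted log2 fold change against 0 Gy (horizontal axes, whiskers SE) of the 10 genes for 0.1 and 2 Gy at 6 h and 24 h. Grey marks are the unpaired fit, red marks the fit with the replicate block, and filled marks have an adjusted p under 0.05. The 4 filled marks, *E2f7*, *E2f8*, *Mybl2* and *Foxm1*, are all in the panel of 2 Gy at 24 h.

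After 0.1 Gy at 6 h, no member and 0% of the 16020 genes were called in the unpaired or the blocked fit, and the members' log2 fold changes were from -0.15 to 0.09. At an unadjusted p of 0.05, 24 genes were found unpaired and 636 with the block. DESeq2 called 0 genes at an adjusted p of 0.05. At 24 h after 0.1 Gy, the unpaired fit called 0 members and 0% of 16183 genes, with 241 genes at an unadjusted p of 0.05 and 0 called by DESeq2, and the blocked fit called 0 members beside 6.84% of all genes. *E2f8* was at 14.6, 12.9, 12.4 and 13.4 CPM, lower than the control of its number in 3 of 4 pairs, with a log2 fold change of -0.31 ± 0.145 (SE, adjusted p = 0.943 unpaired and 0.103 with the block). *Foxm1*, at 25.5, 29.3, 27.9 and 25.3 CPM, was lower in 4 of 4 pairs, with a log2 fold change of -0.23 ± 0.135 (SE, adjusted p = 0.943 unpaired and 0.142 with the block). *Mybl2* had a log2 fold change of -0.25 ± 0.290 (SE) and *E2f7* one of -0.13 ± 0.317 (SE). With GC content and length, the blocked fit called *Foxm1* (-0.32, adjusted p = 0.0445), against 0.538% of all genes lower. It did not call *Mybl2* (-0.40, adjusted p = 0.0873), *E2f8* (-0.29) or *E2f7* (-0.04). For all 4 genes the groups overlapped.

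The doses were compared directly at 24 h, where both comparisons with 0 Gy share their control libraries. *E2f7*, *E2f8* and *Foxm1* were lower in every 2 Gy library than in any 0.1 Gy library, with log2 fold changes of -1.13 ± 0.318 (SE), -1.11 ± 0.223 (SE) and -0.71 ± 0.130 (SE). Such groups were found in 3 of 10 members and in 1.06% of all genes. They were not called in the unpaired fit (adjusted p = 1, 0.731 and 0.671) or with the block (adjusted p = 0.0639, 0.0810 and 0.0709), which called 0% of the 16002 genes in either form. At an unadjusted p of 0.05, 215 genes were found unpaired and 790 with the block. DESeq2 called 39 genes, all lower, with *Foxm1* (adjusted p = 2.14e-04) and *E2f8* (adjusted p = 0.00262) among them. *Mybl2* had a log2 fold change of -0.64 ± 0.252 (SE, adjusted p = 1), and its groups overlapped.

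The levels of mock-irradiated cells were compared between the times. *E2f6* was at 31.5, 42.1, 36.4 and 35.6 CPM at 6 h and at 67.9, 83.8, 74.8 and 63.7 CPM at 24 h, so that the groups were far apart. It rose by 0.98 ± 0.144 on the log2 scale (SE, adjusted p = 0.00806, edgeR's quasi-likelihood test), the only member among the 6.7% of 15887 genes called in the unpaired fit. *E2f4* was at 52.0, 36.2, 48.7 and 54.5 CPM at 6 h and at 24.8, 26.1, 44.1 and 31.5 CPM at 24 h, with replicate 3 the highest at 24 h. Its log2 fold change was -0.61 ± 0.213 (SE), with an adjusted p = 0.116 unpaired and 0.0418 with the block, which called 15.3% of all genes. In this comparison the block paired numbers across the times. Libraries of one number deviated together unevenly there, with a correlation of 0.0887 for number 3, 0.378 for number 1 and 0.8 for number 2. Without replicate 3 at 24 h, *E2f4* was called in the unpaired fit too (adjusted p = 0.0203). *E2f5* was higher at 24 h without overlap of the groups, with a log2 fold change of 0.41 ± 0.149 (SE, adjusted p = 0.125). Non-overlapping groups in either direction were found in 2 of 10 members and in 15.3% of all genes. *E2f7*, *E2f8*, *Mybl2* and *Foxm1* had log2 fold changes from -0.21 to 0.07 with time, none of them called. Per length, *E2f6* was the highest member at 24 h, at 30.0 ± 3.63 RPKM (SD, n = 4), and its range did not reach that of *E2f5* at 14.0 ± 1.44 RPKM or *E2f4* at 12.9 ± 3.6 RPKM.

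The other genes of the pathway were taken from lists of partners and regulators (10 genes), of G1/S genes known as E2F targets (25 genes) and of G2/M genes known as targets of B-Myb and FoxM1 (25 genes). At 24 h after 2 Gy, the unpaired fit called none of the 60 genes. The blocked fit called 22 of 25 G1/S genes lower and 23 of 25 G2/M genes lower, none higher, with medians of -0.70 and -0.79 on the log2 scale against 0.00 over all genes. Of all genes, 6.69% were called lower in that fit. All 25 genes of either list had fitted changes below 0. Without number 2, the blocked fit called 3 G1/S genes and 8 G2/M genes, with medians of -0.61 and -0.84, and without number 1 it called 9 and 11, with medians of -0.63 and -0.75. Of all genes, 0.432% were called in either direction without number 2 and 0.892% without number 1. With GC content and length, the blocked fit called 19 and 23, against 1.69% of all genes lower.

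Of the G1/S genes, *Ccne2*, which encodes cyclin E2, was at 21.6 ± 8.99 CPM (SD, n = 4) in the controls and 7.19 ± 1.71 CPM after 2 Gy, with a blocked log2 fold change of -1.54 ± 0.124 (SE, adjusted p = 0.00144). *Cdc6*, a loader of the replicative helicase, was at 9.79 ± 2.06 and 3.81 ± 0.997 CPM, with -1.35 ± 0.148 (SE, adjusted p = 0.00280). *Rrm2*, a subunit of ribonucleotide reductase, was at 71.8 ± 29.2 and 33.3 ± 12.5 CPM, with -1.09 ± 0.101 (SE, adjusted p = 0.00186). The smallest fitted change was that of *Gins1*, a part of the replicative helicase, with -0.32 ± 0.153 (SE, adjusted p = 0.188).

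Of the G2/M genes, the spindle checkpoint kinase gene *Bub1* was at 21 ± 5.06 CPM (SD, n = 4) and 8.09 ± 2.02 CPM, with a blocked log2 fold change of -1.37 ± 0.116 (SE, adjusted p = 0.00164). *Top2a*, which encodes a topoisomerase needed to separate chromosomes, was at 119 ± 16 and 50 ± 10.7 CPM, with -1.26 ± 0.102 (SE, adjusted p = 0.00144). *Cenpe*, a kinetochore motor gene, was at 43.6 ± 10.5 and 19.1 ± 5.14 CPM, with -1.20 ± 0.114 (SE, adjusted p = 0.00186). *Cdc20*, an activator of the anaphase-promoting complex, had the smallest fitted change at 24 h, with -0.27 ± 0.133 (SE, adjusted p = 0.189), and had a blocked log2 fold change of -0.61 ± 0.142 (SE, adjusted p = 0.331) at 6 h. The study listed *Ccne2*, *Cdc6*, *Bub1*, *Top2a*, *Cenpe* and other genes of these lists as lower in these same libraries. Their direction here is thus not independent evidence.

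Of the partners and regulators, 5 of 10 were called lower with the block at 24 h after 2 Gy and none higher, against 6.69% of all genes lower. With GC content and length in that fit, 2 of 10 were called lower and the median moved from -0.32 to -0.09. *Rbl1*, which encodes p107 and is itself an E2F target, was at 27.9 ± 4.19 CPM (SD, n = 4) in the controls and 14.3 ± 4.62 CPM after 2 Gy, with a log2 fold change of -0.96 ± 0.256 (SE, adjusted p = 0.610 unpaired and 0.00402 with the block). The MuvB genes *Lin54* (-0.91 ± 0.162, SE, adjusted p = 0.0148) and *Lin9* (-0.75 ± 0.202, SE, adjusted p = 0.0427), the DP partner gene *Tfdp1* (-0.36 ± 0.0956, SE, adjusted p = 0.0410) and the retinoblastoma gene *Rb1* (-0.31 ± 0.0862, SE, adjusted p = 0.0458) were the others. None of the 10 was called without number 2. *Rbl2*, which encodes p130, had a log2 fold change of -0.08 ± 0.0928 (SE) and the MuvB gene *Lin37* one of 0.18 ± 0.105 (SE).

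At 6 h after 2 Gy, none of the 60 genes was called in the unpaired or the blocked fit, and all 25 G1/S genes and all 25 G2/M genes had fitted changes below 0 in both, with blocked medians of -0.22 and -0.28. With GC content and length, the blocked fit called 3 G1/S and 7 G2/M genes lower, against 0.138% of all genes lower. Without number 4 it called 2 and 9 lower, against 0.799% of all genes in either direction, and DESeq2 called 1 G1/S gene lower. At 24 h after 0.1 Gy, the blocked fit called 2 partners and regulators (*Rbl1* and *Lin54*), 1 G1/S gene (*Ccne2*, log2 fold change -0.69) and 6 G2/M genes lower, among them *Bub1* (-0.44), *Cenpe* (-0.65) and *Top2a* (-0.44), with list medians of -0.20, -0.12 and -0.16. Of all genes, 4.5% were called lower there, and none of the 3 lists had a gene called higher. None of these calls was made without number 2 or without number 4, and with GC content and length the blocked fit called 0, 1 and 2 genes of the lists lower, against 0.538% of all genes.

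**Figure D4:**
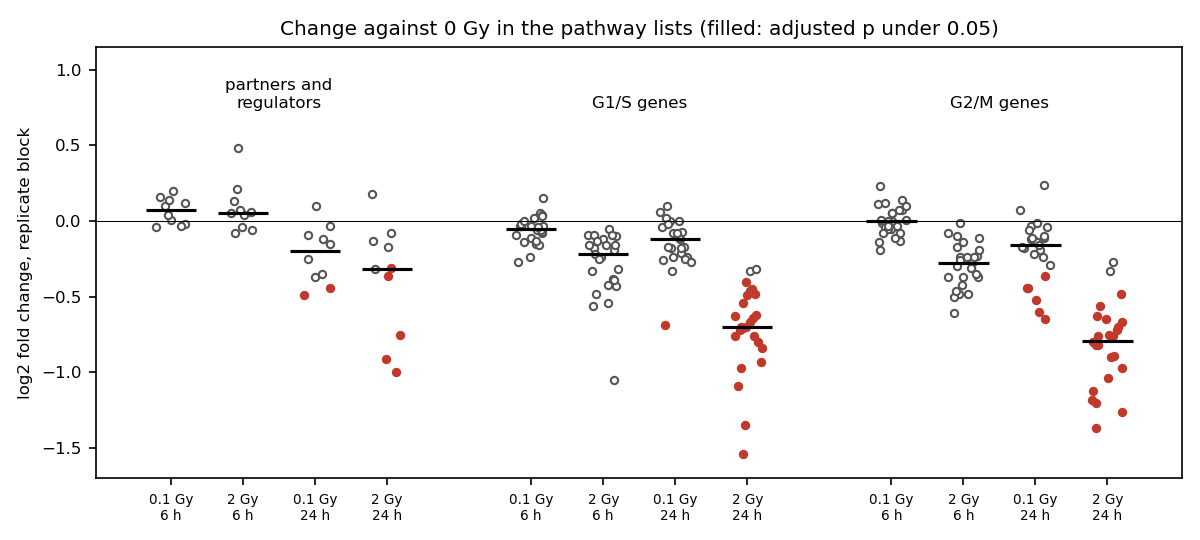
Blocked log2 fold change against 0 Gy (vertical axis) of single genes (points) of the 3 pathway lists for 0.1 and 2 Gy at 6 h and 24 h, with black bars at the medians. Filled red points have an adjusted p under 0.05. At 2 Gy and 24 h, 22 of 25 G1/S genes and 23 of 25 G2/M genes are filled and all points of both lists lie below 0.

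The upstream regions of the genes that were lower, and of *E2f3* as an activator with a smaller change, are shown because E2F sites and the CHR element, a binding site of the MuvB complex, are read in such windows. The sequences are RefSeq's for GRCm38.p6, the 250 bases before the start of the transcript, written along the gene's strand. Capitals mark the letters searched on both strands, which for E2F sites were GGCGGGA, its shifted form GCGGGAA, the variant GGCGCGA with its own shifted form GCGCGAA, and for the CHR were TTTGAA or the variant spelled TTCGAA. The letters were chosen after promoters had been seen, and a start is RefSeq's, which can differ from the gene's end given above. Matches can overlap, as the pair of E2F matches in *E2f3* does.
*E2f7* upstream, chr10:110745189-110745438, plus strand: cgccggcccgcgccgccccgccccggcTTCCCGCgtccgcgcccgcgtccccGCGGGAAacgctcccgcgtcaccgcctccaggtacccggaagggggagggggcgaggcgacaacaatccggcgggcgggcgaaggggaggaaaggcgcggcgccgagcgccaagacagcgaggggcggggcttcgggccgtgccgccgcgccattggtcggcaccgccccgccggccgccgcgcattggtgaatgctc
*E2f8* upstream, chr7:48881597-48881846, minus strand: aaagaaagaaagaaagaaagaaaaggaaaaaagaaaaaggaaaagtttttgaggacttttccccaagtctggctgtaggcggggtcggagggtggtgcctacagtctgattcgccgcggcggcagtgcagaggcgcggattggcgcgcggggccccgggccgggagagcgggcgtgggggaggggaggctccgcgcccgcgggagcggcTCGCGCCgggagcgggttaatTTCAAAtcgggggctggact
*Mybl2* upstream, chr2:163054385-163054634, plus strand: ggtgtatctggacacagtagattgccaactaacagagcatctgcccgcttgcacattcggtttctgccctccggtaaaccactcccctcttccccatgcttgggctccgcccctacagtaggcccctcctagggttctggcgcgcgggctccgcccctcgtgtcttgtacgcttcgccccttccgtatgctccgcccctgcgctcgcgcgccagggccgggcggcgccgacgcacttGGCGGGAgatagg
*E2f3* upstream, chr13:29986064-29986313, minus strand: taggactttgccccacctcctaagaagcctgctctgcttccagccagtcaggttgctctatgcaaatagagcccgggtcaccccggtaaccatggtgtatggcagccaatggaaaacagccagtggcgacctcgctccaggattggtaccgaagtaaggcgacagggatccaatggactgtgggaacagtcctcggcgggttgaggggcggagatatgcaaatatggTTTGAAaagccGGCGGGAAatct

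RefSeq windows were matched for *E2f1*, *E2f2*, *E2f3*, *E2f6*, *E2f7*, *E2f8* and *Mybl2*, 7 of 10 members, with a pair of starts each for *E2f2* and *E2f3*. No entry was matched for *E2f4*, *E2f5* and *Foxm1*. E2F letters were in 13.9% of all 32851 upstream windows and CHR letters in 17.1%. *E2f7* had 2 E2F matches, at -223 and -198 from the start, and no CHR match. *E2f8* had an E2F match that began 41 bases before the start and a CHR match 20 bases before it, both on the other strand. *Mybl2* had 1 E2F match, 13 bases before the start, and neither of the other elements. *E2f3*, which was not called, had a CHR match 23 bases before the start shown and E2F matches 12 and 11 bases before it. The other window of *E2f3* held 1 E2F match, 78 bases before its own start and on the other strand. CCAAT, the letters of NF-Y sites, was found in 2 places for *E2f7*, 1 for *E2f8*, 3 for *E2f3* and 4 over both windows of *E2f2*, and in 33.8% of all windows. One window of *E2f2*, which was not called, held a CHR match 31 bases before its start. This window, chr4:136180532-136180781, lay inside the span of *E2f2* given above. The windows of *E2f1* and *E2f6* held none of these letters. That of *E2f1*, chr2:154569427-154569676, lay inside the span of *E2f1* given above. The bases before that span were thus not searched for *E2f1*.

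Over the 24 libraries, which share dose, time and number effects, log2 levels of *E2f7* and *E2f8* correlated with each other (Pearson's r = 0.83) and with *Foxm1* (r = 0.88 and 0.91), whereas *E2f1* had r = -0.27, -0.09 and -0.23 with these 3 genes. After the mean of each time and number was taken off, *E2f1* had r = 0.34, 0.30 and 0.37 with *E2f7*, *E2f8* and *Foxm1*, which had r = 0.95 with each other. These values are descriptions across libraries that are not independent. The genes whose levels were most like those of *E2f8* among 17352 other genes were *Ndc80*, a kinetochore gene (r = 0.956), *Melk*, a mitotic kinase gene (r = 0.950), and *Mcm4*, a helicase gene (r = 0.949). For *Foxm1* they were *Melk* (r = 0.964), *Pbk* (r = 0.949) and the cyclin A2 gene *Ccna2* (r = 0.945). For *E2f7* they were *Shcbp1* (r = 0.917), *Gen1* (r = 0.914) and *Cdca2* (r = 0.911), and for *Mybl2* the condensin gene *Ncapd2* (r = 0.891), *Mcm2* (r = 0.879) and *Uhrf1* (r = 0.876). For *E2f1* they were *Mfsd12* (r = 0.872), *Zbtb12* (r = 0.868) and *Cyb561d2* (r = 0.868), none of which is in the pathway lists.

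The replicate number separated the levels of *E2f2*. Its level in the 6 libraries of number 2 was from 2.60 to 4.82 CPM, below the other 18 libraries, which were from 5.38 to 10.2 CPM. Within a number at 6 h, *E2f2* was lower after 2 Gy than 0 Gy in all 4 pairs, by -0.09 to -0.31 on the log2 scale. Of all genes, 8.55% were lower in all 4 pairs there. At 24 h, 2 Gy against 0 Gy gave -0.15, 0.02, -0.08 and -0.30. In all 4 pairs at 24 h, *E2f2* was higher after 0.1 Gy than 0 Gy, by 0.09 to 0.57. It was lower after 2 Gy than 0.1 Gy in all 4 pairs, by -0.24 to -0.55. *E2f2* was not called in any of these comparisons. The 6 libraries of number 2 also had the lowest summed level of 8 microglial markers, from 176 to 202 CPM against 1150 to 1828 CPM in the others. *E2f4* in the number 2 libraries was from 26.1 to 37.4 CPM and from 24.8 to 54.5 CPM in the others. *E2f6* was the highest in number 2 in all 6 groups. The part of the microglial markers in these levels was not tested. In bulk RNA, fewer cells of a type and less RNA per cell cannot be told apart, which also holds for the dose comparisons.

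**Figure D5:**
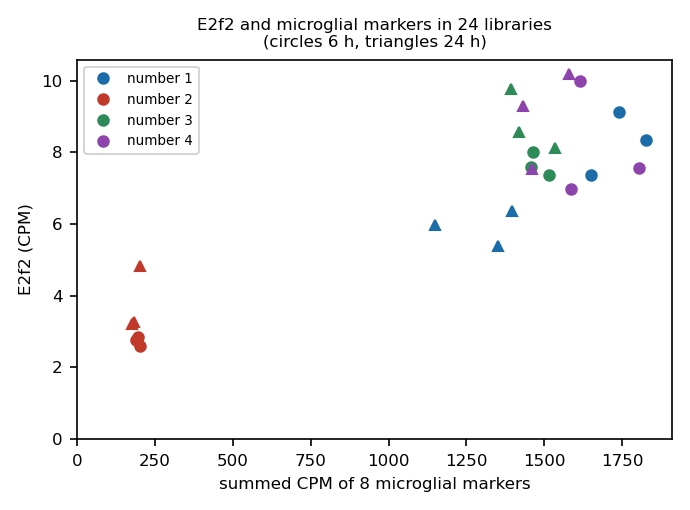
*E2f2* (vertical axis, CPM) against the summed CPM of 8 microglial markers (horizontal axis) in the 24 libraries, coloured by replicate number, with circles for 6 h and triangles for 24 h. The number 2 libraries sit at 176 to 202 CPM of the markers and 2.60 to 4.82 CPM of *E2f2*, apart from the rest.

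All 10 astrocyte markers were detected in all 24 libraries, but at very different levels. *Gfap* was from 343 to 798 CPM and *Aqp4* from 334 to 915 CPM. *S100b* was the lowest of the 10 and did not exceed 5.67 CPM in any library. The summed level of 10 astrocyte markers was from 2476 to 3415 CPM in mock-irradiated cells and from 2355 to 3351 CPM after 2 Gy at 24 h. The 8 microglial markers summed to 176 to 1431 CPM and 181 to 1536 CPM in these groups, the 6 neuronal markers to 249 to 521 CPM and 204 to 455 CPM, the 8 markers of the oligodendrocyte lineage to 340 to 567 CPM and 354 to 813 CPM, and the 8 of fibroblasts and vessels to 334 to 970 CPM and 360 to 1165 CPM. The neuronal marker *Rbfox3* was under 1 CPM in all 24 libraries, as were *Mog* and *Lum*, and *Cldn5* was at 0 in 21. Other genes of these lists were well detected. *Map2* was from 105 to 425 CPM, *Tubb3* from 35.2 to 123 CPM, *Olig1* from 151 to 538 CPM and *Col1a1* from 118 to 880 CPM. The ranges overlapped between the groups for each list.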

How the data were processed

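RNA of primary astrocytes was sequenced by a company after poly(A) selection, and the reads were trimmed, mapped and counted per gene. The authors deposited raw counts, 1 table per library, without normalization, and per the labels the build is mm10. The aligner, the counter and the use of strand are not given in the sources used here. Gene symbols and GC content came from GENCODE M21, which holds 49056 of the 49315 identifiers.

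Groups and numbers were taken from the labels. The members, lists and tests were chosen with earlier results of these data known. Named genes were the members, the partners and regulators, in each target list the 3 lowest and the highest log2 fold change at 24 h after 2 Gy, the 3 genes most like *E2f1*, *E2f7*, *E2f8*, *Mybl2* and *Foxm1*, and markers.

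Counts were fitted on the whole table in R 4.3.3 with edgeR 4.0.16 (TMM, filterByExpr, quasi-likelihood test, Benjamini-Hochberg adjustment), with a call at an adjusted p of 0.05, on the 4 libraries of each group compared. Adjusted p-values in the text are from this test unless another tool is named. CPM were TMM-scaled over 24 libraries, and log2 CPM used a prior count of 2. The 36 pairs of libraries of one group differed by more than sampling noise (lowest chi-square per degree of freedom 28.33). Libraries of one number deviated together from their group means (correlation over all genes tested 0.514 to 0.907 for the comparisons with 0 Gy within a time), so the numbers were taken as pairs within a time. Between times the correlation was 0.0887 for replicate 3, though the block for 24 h against 6 h still paired the numbers across times. The labels speak of biological repeats and do not say whether each number was a separate isolation. Unpaired p-values thus measure the spread between these libraries, and blocked ones the spread left within numbers. Part of the spread lay between numbers, as the microglial markers summed to 176 to 202 CPM in number 2 and 1150 to 1828 CPM in the others. How much of the spread was technical was not tested. Alternatives were DESeq2 1.42.0, limma 3.58.1 (voom), edgeR's newer quasi-likelihood method, 2 other scalings, 2 other filters, the replicate block with and without a GC and length correction (splines with 5 degrees of freedom), all 24 libraries in one fit, a minimum absolute log2 fold change of 1, and each library or number left out. The fits were tested on simulated data.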

Additional observations from a re-analysis of the deposited data

Results flagged for a closer look

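Of 60 sets of 4 libraries, 3 had 1 library far from the others by Dixon's criterion, and chance flags about 5% of such sets. *E2f2* in replicate 2 at 6 h after 2 Gy was at 2.60 CPM, below the other 3 libraries, *E2f6* in replicate 2 was at 76.4 CPM at 24 h after 0.1 Gy and at 66.6 CPM at 24 h after 2 Gy, above the others, and all 3 libraries carry the number with the lowest microglial markers. The part of these markers was not tested.

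The response to 2 Gy differed between 24 h and 6 h, in the fit with the replicate block and edgeR's test of the interaction, for *E2f8* (-1.17, adjusted p = 0.0226), *Foxm1* (-0.78, adjusted p = 0.0335) and *E2f7* (-0.88, adjusted p = 0.0384). Both *E2f8* and *E2f7*, as well as *Foxm1*, were lower at 24 h than at 6 h relative to the control of the same time. No member was called in the unpaired form of the test.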

How the results depend on the processing

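The number of members called changed mainly with the replicate block. For 2 Gy against 0 Gy at 24 h it was 0 in the unpaired fit and remained 0 without any single library, against 4 with the replicate block, 4 with the block plus GC and length correction, 3 with DESeq2, 3 with all 24 libraries in one fit and 3 to 7 with the block and one number left out, where the 7 came with 33.1% of all genes called. Of all genes, the block called 6.69% lower, the GC correction beside it 1.69%, DESeq2 0.711% and all 24 libraries 0.617%. For 0.1 Gy at 24 h, the block with GC and length correction called 1 member (*Foxm1*, adjusted p = 0.0445), against 0.538% of all genes lower. For 2 Gy against 0.1 Gy, 0 became 2 with DESeq2, 3 with the block and GC correction, 1 with all 24 libraries, and 0 to 3 with the block and one number left out. Of all genes, DESeq2 called 39 of 18312, the block and GC correction 104 of 16002 and all 24 libraries 15 of 17353. With one number left out, 0 to 161 genes were called. For 24 h against 6 h, 1 became 2 with the block, 3 with the GC correction beside it, 3 with all 24 libraries, 1 to 3 with the block and one number left out and 1 to 2 without one library. It was 0 with a minimum log2 fold change of 1, by construction, since *E2f6* was at 0.98. Of all genes, the block called 15.3%, the GC correction beside it 4220 of 15887 and all 24 libraries 2488 of 17353. The 3 members with one number left out came without number 3, where 7192 of 15840 genes were called. For the interaction, 0 became 3 with the block, 3 with the GC correction beside it, and 0 to 6 with the block and one number left out, where the 6 came with 23.4% of all genes called. The fit with the GC correction called 401 of 16866 genes. Leaving out a number also lowers the number of libraries. The cause of the other differences was not tested. Non-overlapping members fell from 5 to 3 with library size alone, a count without the share of all genes at that scaling.

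The unpaired fit called a single member in any comparison, so little could be lost from it, and the blocked calls changed with the number left out. *E2f4* at 24 h after 2 Gy was called higher (0.23) without number 3 and was at -0.12 with GC and length correction. The lowest count behind a member was 42, for *E2f7*. Scaling by library size alone shifted the median of all genes by 0.09 on the log2 scale at 24 h after 0.1 Gy.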
